A study of Homo sapiens with 4 samples.

Results

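Glycolysis and the transcriptional response to low oxygen were followed through 39 genes in HaCaT, a line of human keratinocytes that became immortal spontaneously in culture. The 39 genes were chosen by name, as enzymes, transporters and regulators of glycolysis and as known targets and sensors of the hypoxia-inducible factor HIF1, and each of them is among the 29209 genes of the deposited tables. The libraries came from TCN1_OE cells (2 libraries), which were given a lentivirus to overexpress TCN1, a secreted vitamin B12-binding protein, and from NC cells (2 libraries), the negative control of the same line, for which the labels do not describe the virus given. The promoter of the vector is not named, nor whether a line is 1 clone. Because separate cultures are not stated either, the p-values cover the variation among these 4 libraries, and that may be technical. No library was labelled as grown in low oxygen.

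Library totals lay between 14756073 and 16586500 counts in TCN1_OE and between 11593377 and 19973550 counts in NC, and the chi-square per degree of freedom between the 2 libraries of a group was 8.54 in TCN1_OE and 8.4 in NC, above counting noise. TCN1 itself had 1700 and 1253 counts in TCN1_OE, against 50 and 17 counts in NC. The basal keratins KRT5 and KRT14 lay between 2228 and 3568.5 FPKM (counts corrected for the length of the gene and the size of the library) in TCN1_OE and between 2039.5 and 3403.2 FPKM in NC. All 10 keratinocyte markers reached 1 FPKM in every library, against 1 of 8 fibroblast, 1 of 7 melanocyte, 0 of 6 endothelial and 1 of 7 leukocyte markers, and no list of these other cell types summed to more than 3.09 FPKM in TCN1_OE or 2.75 FPKM in NC. Mitochondrially encoded genes took 6.04% and 5.65% of the counts in TCN1_OE, against 5.33% and 5.13% in NC, and whether this share has a part in the results below was not tested.

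Glycolysis splits glucose into pyruvate, which cells with little oxygen, and many dividing cells with enough of it, turn into lactate and export. HIF1 is a pair of proteins of which HIF1A is made all the time and destroyed when oxygen is present, because prolyl hydroxylases (EGLN1, EGLN3) mark it for degradation. When oxygen falls, the pair binds short DNA elements with the core ACGTG or GCGTG near genes for glucose uptake, glycolysis, blood vessel growth and mitochondrial removal. In the epidermis, which has no blood vessels of its own, keratinocytes rely strongly on glycolysis.

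Promoter windows were read for this element core, because it is the shared sequence feature by which HIF1 targets are recognised. The windows are the 250 bases before a RefSeq gene start on GRCh38.p14, printed 5′ to 3′ on the strand of the gene, with every ACGTG or GCGTG, on either strand, in capitals. They are shown for DDIT4 (chr10:72273674-72273923, plus strand), ALDOC (chr17:28576896-28577145, minus strand), HK2 at both of its listed starts (chr2:74833877-74834126, plus strand, and chr2:74834920-74835169, plus strand), ENO1 (chr1:8878687-8878936, minus strand) and CA9 (chr9:35673678-35673927, plus strand). DDIT4, ALDOC, ENO1 and HK2 had the smallest p-values among the genes with a listed window, and CA9 is a textbook HIF1 target with the core close to its start.
DDIT4: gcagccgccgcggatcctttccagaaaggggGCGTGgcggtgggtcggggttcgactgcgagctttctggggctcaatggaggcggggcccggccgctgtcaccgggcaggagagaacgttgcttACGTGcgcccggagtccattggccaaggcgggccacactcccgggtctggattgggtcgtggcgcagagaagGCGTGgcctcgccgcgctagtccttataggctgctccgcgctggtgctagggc
ALDOC: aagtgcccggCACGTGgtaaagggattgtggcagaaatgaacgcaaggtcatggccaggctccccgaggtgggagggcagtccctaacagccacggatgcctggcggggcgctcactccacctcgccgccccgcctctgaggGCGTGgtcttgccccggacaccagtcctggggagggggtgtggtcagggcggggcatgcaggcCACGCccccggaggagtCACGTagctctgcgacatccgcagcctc
HK2, first start: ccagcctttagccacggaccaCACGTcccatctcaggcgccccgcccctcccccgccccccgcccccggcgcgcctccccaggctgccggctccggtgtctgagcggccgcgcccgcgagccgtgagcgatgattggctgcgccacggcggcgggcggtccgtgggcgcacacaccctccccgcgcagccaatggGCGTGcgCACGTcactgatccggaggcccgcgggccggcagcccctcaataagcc
HK2, second start: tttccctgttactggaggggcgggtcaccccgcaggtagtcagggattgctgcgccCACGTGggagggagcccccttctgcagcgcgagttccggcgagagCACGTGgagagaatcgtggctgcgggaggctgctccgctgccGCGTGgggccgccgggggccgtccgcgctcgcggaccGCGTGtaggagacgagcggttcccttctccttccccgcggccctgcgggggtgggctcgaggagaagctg
ENO1: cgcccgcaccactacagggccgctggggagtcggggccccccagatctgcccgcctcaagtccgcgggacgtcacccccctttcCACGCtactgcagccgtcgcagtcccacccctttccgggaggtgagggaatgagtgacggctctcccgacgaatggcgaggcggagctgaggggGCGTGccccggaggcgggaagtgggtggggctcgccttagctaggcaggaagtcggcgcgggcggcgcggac
CA9: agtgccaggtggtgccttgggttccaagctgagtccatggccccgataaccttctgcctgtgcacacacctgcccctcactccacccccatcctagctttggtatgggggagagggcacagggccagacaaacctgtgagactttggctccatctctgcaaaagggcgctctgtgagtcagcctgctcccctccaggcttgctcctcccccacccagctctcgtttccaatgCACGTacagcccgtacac
DDIT4 held 1 ACGTG and 2 GCGTG, ALDOC 3 and 2, the HK2 windows 2 and 1 at the first start and 4 and 2 at the second, ENO1 0 and 2, and CA9 1 and 0. A CACGTG, which is also the E-box bound by MYC-type factors, holds ACGTG on both strands and was counted as 2; ALDOC held 1 such site and the second HK2 window 2. The fold changes of these genes had either sign, negative for HK2 and ENO1 and positive for DDIT4 and ALDOC, and DDIT4 alone passed the test described below.

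Windows were listed for 34 of the 39 genes, 62 windows in all, and 37 of them, or 59.7%, held ACGTG or GCGTG, against 43.2% of all 34943 windows. ACGTG alone was in 38.7% of the windows of these genes and in 18.5% of all windows. The windows of these genes also held more CpG, a median of 22 against 11, and both cores contain one. Among windows with 0 to 9 CpG, either core was in 25% of the 16 windows of these genes and in 23.6% of all windows, and ACGTG in 25% and 12.8%. With 10 to 19 CpG, either core was in 75% of the 12 windows of these genes and in 56% of all, and ACGTG in 25% and 23.6%. With at least 20 CpG, either core was in 70.6% of the 34 windows of these genes and in 64.4% of all, and ACGTG in 50% and 23.9%. The gap for either core was thus smaller in the first and last of these classes than over all windows, and that for ACGTG was nearly absent in the middle one. These shares are a description of the windows, several of which belong to 1 gene.

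Levels along the pathway show where the deposited counts can be read. The highest levels in FPKM were those of GAPDH, PKM and ENO1, which act in the later, energy-yielding steps. GAPDH, which makes the first reduced cofactor, averaged 647.3 ± 13.5 FPKM in TCN1_OE and 655.8 ± 28.4 FPKM in NC (SD, n = 2 each, as for all means below). PKM, the pyruvate kinase gene, averaged 469.6 ± 26.5 FPKM in TCN1_OE and 487.3 ± 10.5 FPKM in NC, and ENO1, the main enolase, 304.2 ± 20 FPKM in TCN1_OE and 370 ± 13.5 FPKM in NC. The phosphoglycerate mutase PGAM1, the triosephosphate isomerase TPI1 and the phosphoglycerate kinase PGK1 followed between 108.4 and 217.1 FPKM in all 4 libraries. The glucose transporter gene SLC2A1 (GLUT1), the hexokinase HK1, the isomerase GPI and the phosphofructokinase PFKP stood between 25.2 and 49.3 FPKM, and PFKL, PFKM and HK2 between 7.08 and 19.1 FPKM. Neighbours in this order, such as GPI and PFKP, overlapped between libraries. The order also depends on the gene length used for FPKM, 2396 bp for GAPDH and 8572 bp for PKM. By counts PKM was above GAPDH, with 64107 and 61773 against 26105 and 22550 in TCN1_OE. In NC the counts were 82159 and 49165 for PKM, against 32348 and 17660 for GAPDH. Paralog shares given below depend on these lengths too. Together the 17 genes from hexokinase to lactate dehydrogenase took 0.956% and 1.003% of all counts in TCN1_OE, against 1.036% and 1.059% in NC. ALDOA, LDHA and LDHB, described next, add almost nothing to these sums. Without them the shares were 0.955% and 1.003% in TCN1_OE, against 1.036% and 1.059% in NC.

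**Figure D1:**
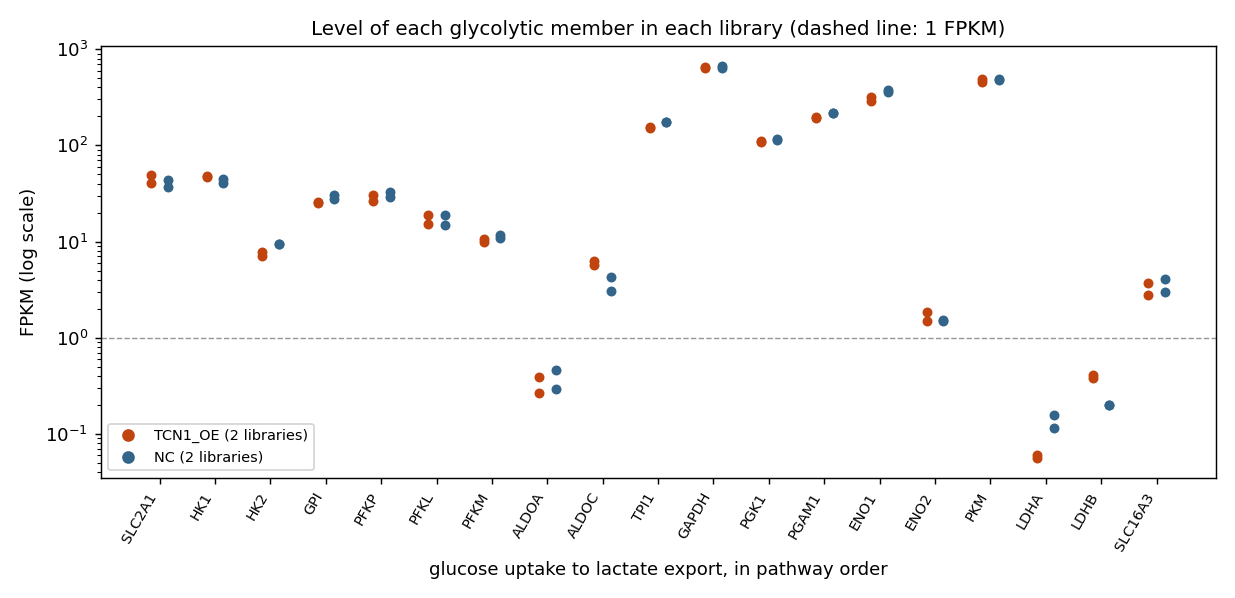
FPKM of 19 glycolytic genes on a log scale, in pathway order from glucose uptake to lactate export, with 1 point per library (TCN1_OE left, NC right) and a dashed line at 1 FPKM. ALDOA, LDHA and LDHB lie below the line in all 4 libraries, between highly expressed neighbours.

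A set of 7 genes had a mean under 1 FPKM over the 4 libraries and is kept apart: ALDOA, LDHA, LDHB, SLC16A1, CA9, ANKRD37 and EGLN3. LDHA, the main lactate dehydrogenase subunit gene, had 6 and 5 counts in TCN1_OE, against 19 and 8 counts in NC. LDHB, its paralog, had 19 and 18 counts in TCN1_OE, against 12 and 7 counts in NC. ALDOA, the principal aldolase gene, had 17 and 22 counts in TCN1_OE, against 35 and 13 counts in NC. The lactate transporter gene SLC16A1 (MCT1) had 0 and 4 counts in TCN1_OE, against 2 and 1 counts in NC, and a count of 0 allows up to 3. ALDOA, LDHA and LDHB act beside enzymes at far higher levels, and they are kept apart as possible losses in the counting. No difference between the lines is read from them or from SLC16A1. In the GENCODE 29 annotation 53.5% of the exonic bases of ALDOA and 33.42% of those of LDHB lie under another gene, as do 3.29% of those of SLC16A1 and 0% of those of LDHA. The gene over 42.31% of ALDOA, on the same strand, had 32 and 26 counts in TCN1_OE and 28 and 23 counts in NC. Of the distinct 100-base words in LDHA transcripts 0.17% also occur in a transcript of another gene. The annotation release used for the counting is not given in the sources used here, and the cause of the low counts was not tested.

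The other 3 low genes are known to be induced when oxygen falls. CA9, a surface carbonic anhydrase, had 13 and 7 counts in TCN1_OE, against 9 and 6 counts in NC, with 38.5% of its exonic bases under the opposite-strand gene ARHGEF39. ANKRD37, a small ankyrin-repeat protein, had 26 and 19 counts in TCN1_OE, against 12 and 23 counts in NC, with 35.23% of its exonic bases under UFSP2. EGLN3, an oxygen-sensing prolyl hydroxylase, had 23 and 13 counts in TCN1_OE, against 31 and 17 counts in NC, and no exonic base under another gene. CA9 was too low to be tested, and ANKRD37 and EGLN3 did not pass. The library type does not mark strand, so reads of overlapping genes on opposite strands cannot be told apart.

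Differences between the lines were tested with edgeR's quasi-likelihood test over all 15113 genes with enough counts, with Benjamini-Hochberg adjustment and a threshold of 0.05. Of the 39 genes 37 were tested, all but SLC16A1 and CA9, and 32 had a mean of at least 1 FPKM. DDIT4 rose, and no other of them passed: 1 of 37 was higher and 0 were lower, where 0.285% of all tested genes were higher and 0.212% lower. DESeq2 likewise called 1 higher and 0 lower, where it called 0.957% and 0.992% of all genes with an adjusted p. Limma on log2(FPKM + 0.5) called 0 in either direction, but it called only 1 of all 11470 genes higher, or 0.00872%, and 0 lower, so its 0 says nothing particular about these genes. At an unadjusted p under 0.05 and a mean of at least 1 FPKM, 4 genes were higher (DDIT4, NDRG1, ALDOC and BNIP3L) and 4 lower (ENO1, HK2, TPI1 and GPI), where 6.22% and 8.15% of all such genes were. The 2 groups did not overlap in FPKM for 9 of the 32 genes with TCN1_OE above and for 8 with TCN1_OE below, where 20.5% and 23% of all genes of that level were so placed. The median log2 fold change (TCN1_OE over NC) of the 32 genes was -0.003, with 16 positive and 16 negative, beside -0.01 over all tested genes of that level. In bulk RNA, fewer cells with a transcript and less transcript per cell cannot be told apart.

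**Figure D2:**
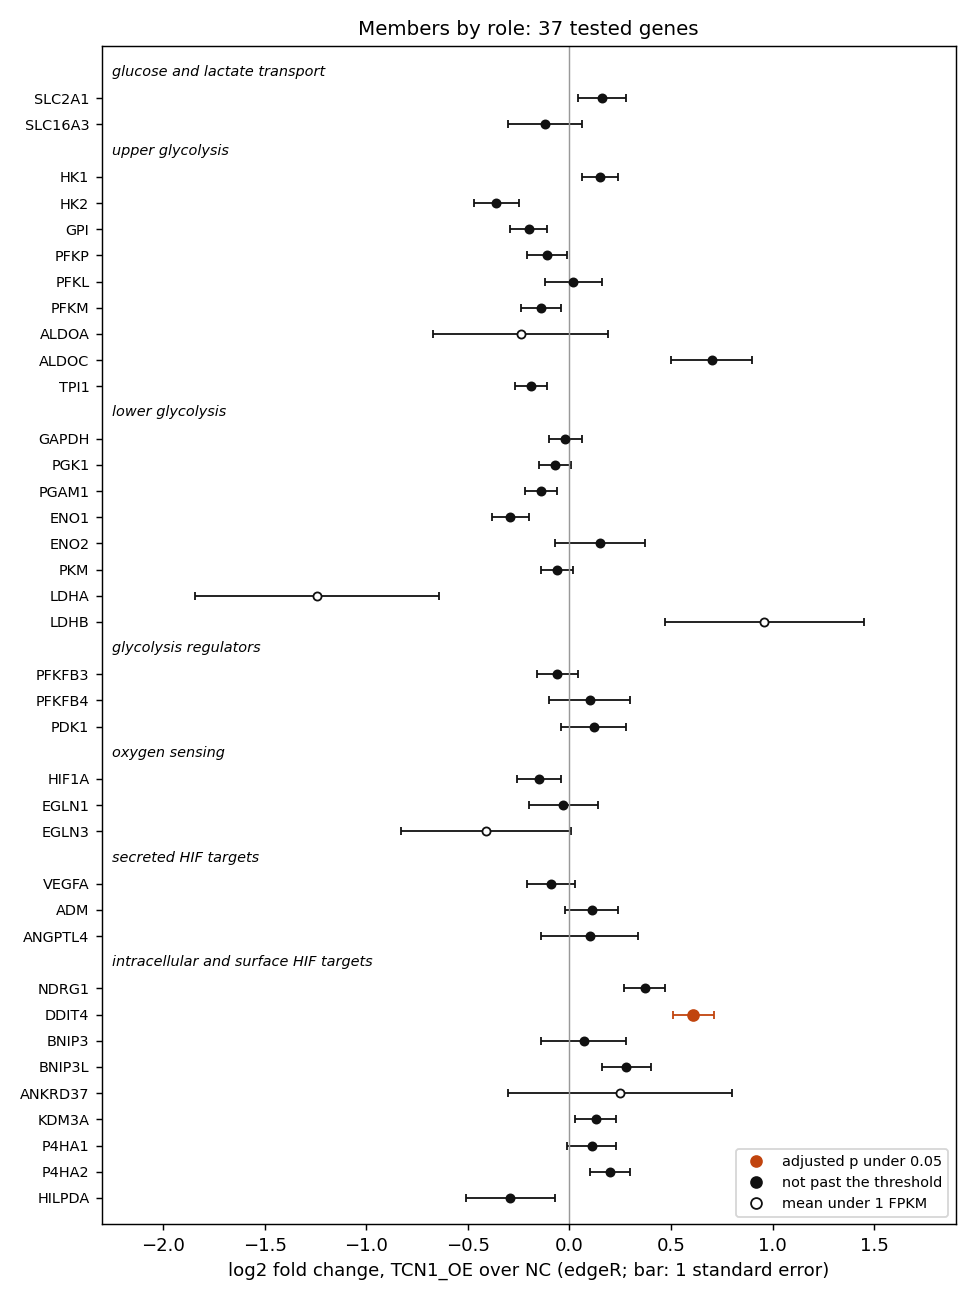
log2 fold change of TCN1_OE over NC for the 37 tested genes, grouped by role, with bars of 1 standard error from edgeR. DDIT4, in colour, is the gene past the adjusted threshold, and open points mark genes with a mean under 1 FPKM, whose bars are wide.

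DDIT4 (ENSG00000168209, chromosome 10, 72273920 to 72276036, plus strand) encodes REDD1, an inhibitor of the growth kinase complex mTORC1 that is induced by low oxygen and also by DNA damage, glucocorticoids and amino acid or ER stress. Its level was 205.2 and 233.3 FPKM in TCN1_OE, against 138.8 and 148.4 FPKM in NC. Both TCN1_OE libraries were above both NC libraries, by more than the spread within either group. It was 1.52-fold higher, which is 0.61 ± 0.10 on the log2 scale (SE; edgeR adjusted p = 0.0418). Without each library in turn, its log2 fold change was 0.50 to 0.70. DDIT4 was also called under DESeq2 (adjusted p 0.000116), but not under limma on log2(FPKM + 0.5), where the adjusted p was 0.175. In GENCODE 29 the antisense gene DDIT4-AS1 lies over 41.16% of its exonic bases, and reads there could come from either gene. DDIT4-AS1 is not among the 29209 genes with deposited values, so it has no counts to set beside those of DDIT4.

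The 10 intracellular and surface targets of HIF1 include 8 with a mean of at least 1 FPKM, of which 7, DDIT4 among them, had a positive fold change, and none besides DDIT4 passed. NDRG1, a stress-responsive protein linked to differentiation, stood at 20.5 and 22.8 FPKM in TCN1_OE, against 15.7 and 17.8 FPKM in NC. The groups did not overlap, at a log2 fold change of 0.37 ± 0.10 (edgeR adjusted p = 0.167). The log2 fold change of NDRG1 was 0.27 to 0.47 without each library in turn. BNIP3L, a mitophagy receptor of the outer mitochondrial membrane, stood at 17.7 and 15 FPKM in TCN1_OE, against 14.5 and 12.4 FPKM in NC, and its groups were apart by a narrow margin. Its log2 fold change was 0.28 ± 0.12 (edgeR adjusted p 0.381). The related receptor BNIP3, a classical HIF1 target, had a log2 fold change of 0.07 ± 0.21 with overlapping groups.

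The collagen prolyl 4-hydroxylase subunit genes P4HA1 and P4HA2, which are needed for collagen folding and induced by HIF1, had log2 fold changes of 0.11 ± 0.12 and 0.20 ± 0.10. P4HA2 stood at 6.46 and 6.81 FPKM in TCN1_OE, against 5.72 and 5.77 FPKM in NC, and did not pass. The histone demethylase KDM3A had 0.13 ± 0.10. HILPDA, a lipid droplet protein that is strongly induced in low oxygen, had a negative value of -0.29 ± 0.22, with 2.18 and 2.19 FPKM in TCN1_OE and 2.78 and 2.54 FPKM in NC. Among the 13 genes grouped here as secreted, intracellular or surface targets, 11 had a mean of at least 1 FPKM. Of these 9 were positive and 2 negative, with a median log2 fold change of 0.11. Over all tested genes of that level 5345 were positive and 5934 negative, with a median of -0.01. HIF1-induced genes grouped with the enzymes, transporters and sensors, such as HK2, ALDOC, SLC16A3 and EGLN3, are not in this count. The summed FPKM of the 13 was 296.8 and 323.2 in TCN1_OE, against 219.3 and 226.9 in NC, of which DDIT4 made up the larger part.

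None of the secreted targets passed. VEGFA, the main vessel growth factor, stood at 3 and 3.38 FPKM in TCN1_OE, against 3.2 and 3.59 FPKM in NC. The groups overlapped, at -0.09 ± 0.12 on the log2 scale (95% interval -0.37 to 0.19). ADM, the vasodilator peptide adrenomedullin, had 0.11 ± 0.13 and the lipase inhibitor ANGPTL4 0.10 ± 0.24. In both genes the TCN1_OE libraries lay above the NC libraries, and the 95% intervals of the log2 fold change were -0.18 to 0.40 for ADM and -0.43 to 0.63 for ANGPTL4.

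Of the oxygen-sensing genes, HIF1A stood at 29.2 and 24.5 FPKM in TCN1_OE, against 31.5 and 28 FPKM in NC. The groups overlapped, at -0.15 ± 0.11 on the log2 scale (edgeR adjusted p = 0.608). EGLN1, the main hydroxylase that marks HIF1A, averaged 2.84 ± 0.344 FPKM in TCN1_OE and 2.9 ± 0.298 FPKM in NC, a log2 fold change of -0.03 ± 0.17. HIF1A is controlled mostly at the level of protein, which RNA counts do not measure.

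**Figure D3:**
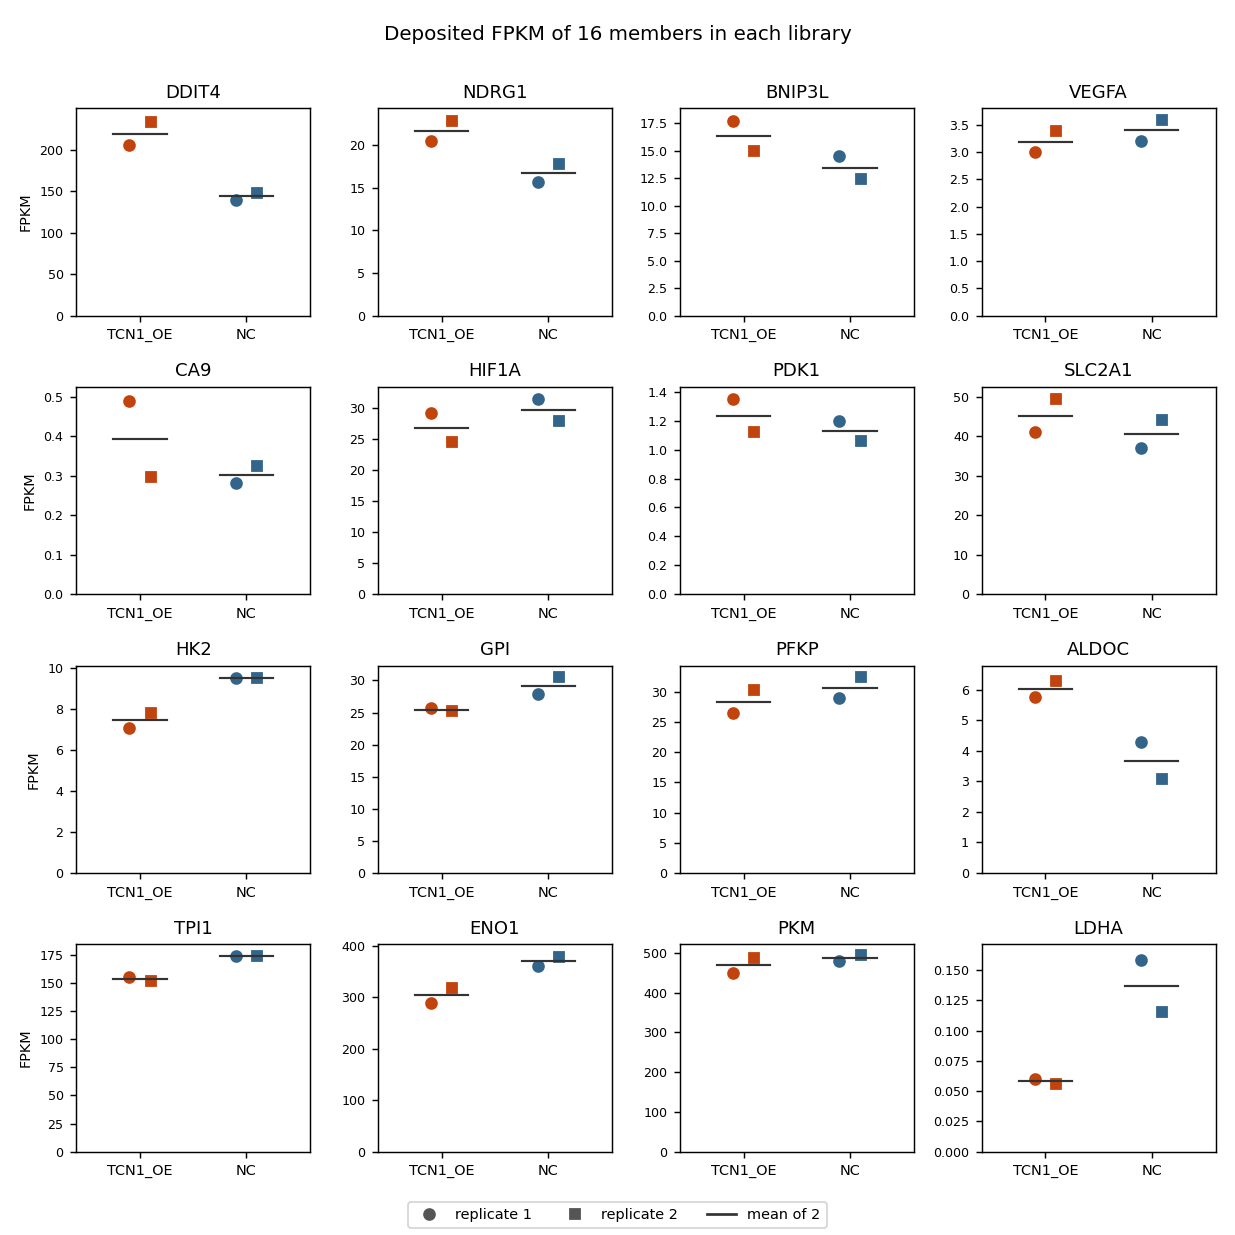
Deposited FPKM of 16 genes in each library, with axes from 0, TCN1_OE left and NC right, circles for replicate 1, squares for replicate 2 and lines for group means. DDIT4 at 205.2 and 233.3 FPKM in TCN1_OE stands clear of 138.8 and 148.4 FPKM in NC, while VEGFA, HIF1A, PFKP and SLC2A1 overlap between the lines.

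Neither transporter of this level passed. SLC2A1, which lets glucose into the cell, stood at 41.1 and 49.3 FPKM in TCN1_OE, against 36.9 and 44 FPKM in NC. In both lines replicate 2 was the higher, and the groups overlapped, with a log2 fold change of 0.16 ± 0.12 and a 95% interval of -0.11 to 0.43. The exporter of lactate SLC16A3 (MCT4), a HIF1 target, averaged 3.24 ± 0.615 FPKM in TCN1_OE and 3.53 ± 0.778 FPKM in NC, at -0.12 ± 0.18 on the log2 scale.

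The hexokinases, which trap glucose in the cell, had fold changes of opposite sign and did not pass. HK2 (ENSG00000159399, chromosome 2, 74833981 to 74893359, plus strand), the isoform induced by HIF1 and growth signals, stood at 7.08 and 7.79 FPKM in TCN1_OE, against 9.5 and 9.5 FPKM in NC. The groups were apart, at -0.36 ± 0.11 on the log2 scale (edgeR adjusted p = 0.22). HK1, the widely expressed isoform, stood at 47 and 48.4 FPKM in TCN1_OE, against 41 and 44.6 FPKM in NC, a log2 fold change of 0.15 ± 0.09. As a share of both genes' FPKM, HK2 was 13.1% and 13.9% in TCN1_OE, against 18.8% and 17.6% in NC. These shares did not overlap. They are given as a description, without a test, and the smallest p that an exact two-sided permutation test could give with 2 libraries against 2 is 0.333.

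Phosphofructokinase carries out the committed step. Its platelet-type gene PFKP stood at 26.5 and 30.3 FPKM in TCN1_OE, against 28.9 and 32.4 FPKM in NC, and made up 51.4% and 50.5% of the 3 subunit genes in TCN1_OE, against 52.8% and 51.5% in NC, shares that lay next to each other without overlapping. The liver-type gene PFKL and the muscle-type gene PFKM had log2 fold changes of 0.02 ± 0.14 and -0.14 ± 0.10. PFKFB3 and PFKFB4, which make the activator fructose 2,6-bisphosphate, had -0.06 ± 0.10 and 0.10 ± 0.20, and PFKFB4 was 4.83% and 5.58% of the pair in TCN1_OE, against 5.19% and 4.25% in NC. PDK1, a mitochondrial kinase that inhibits pyruvate dehydrogenase and so the conversion of pyruvate to acetyl-CoA, stood at 1.35 and 1.12 FPKM in TCN1_OE, against 1.2 and 1.06 FPKM in NC. Of these 6 genes 0 passed by edgeR, and PFKM alone had groups that did not overlap, with 9.89 and 10.6 FPKM in TCN1_OE and 11 and 11.6 FPKM in NC.

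**Figure D4:**
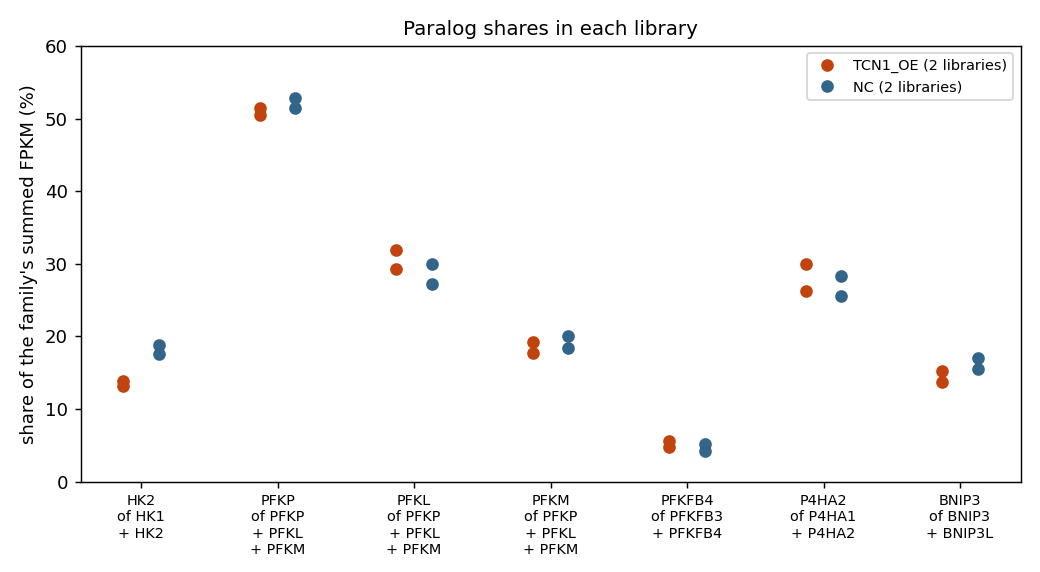
Share of a family's summed FPKM taken by the paralog named first under the axis, in percent, with 1 point per library, TCN1_OE left and NC right. HK2 takes 13.1% and 13.9% of the hexokinase pair in TCN1_OE and 18.8% and 17.6% in NC, while the PFKL, PFKM, PFKFB4 and P4HA2 shares overlap and those of PFKP and BNIP3 are narrowly apart.

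Aldolase C was the glycolytic gene with the highest positive value among those of at least 1 FPKM. ALDOC (ENSG00000109107, chromosome 17, 28573115 to 28577264, minus strand), a paralog of ALDOA best known from brain and a HIF1 target, stood at 5.77 and 6.3 FPKM in TCN1_OE, against 4.29 and 3.07 FPKM in NC. The groups were apart, with 250 and 243 counts in TCN1_OE and 224 and 93 counts in NC. On the log2 scale ALDOC was at 0.70 ± 0.20 (edgeR adjusted p = 0.181). Without NC replicate 1 it stood at 0.96, and without NC replicate 2 at 0.49. An antisense gene lies over 10.11% of its exonic bases.

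Several abundant enzymes had lower values in both TCN1_OE libraries without passing. ENO1 (ENSG00000074800, chromosome 1, 8861000 to 8879250, minus strand) stood at 290 and 318.3 FPKM in TCN1_OE, against 360.4 and 379.5 FPKM in NC. This is -0.29 ± 0.09 on the log2 scale (edgeR adjusted p = 0.207). TPI1 stood at 155.3 and 152.2 FPKM in TCN1_OE, against 174.6 and 174.6 FPKM in NC, a log2 fold change of -0.19 ± 0.08. GPI stood at 25.7 and 25.2 FPKM in TCN1_OE, against 27.9 and 30.5 FPKM in NC, at -0.20 ± 0.09. TPI1 and GPI had edgeR adjusted p of 0.361 and 0.368, so none of the 3 passed.

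The remaining enzymes of the later steps had smaller fold changes. PGAM1 had -0.14 ± 0.08, with 26.99% of its 100-base words also present in transcripts of 3 other genes, so its counts are uncertain. PGK1 had -0.07 ± 0.08, PKM -0.06 ± 0.08 and GAPDH -0.02 ± 0.08, with 95% intervals of -0.25 to 0.11, -0.24 to 0.13 and -0.20 to 0.15. PKM stood at 450.9 and 488.4 FPKM in TCN1_OE, against 479.9 and 494.7 FPKM in NC, and the groups overlapped. The minor enolase ENO2 averaged 1.68 ± 0.244 FPKM in TCN1_OE and 1.51 ± 0.029 FPKM in NC. Over the 14 enzymes of at least 1 FPKM, 10 were negative and 4 positive, with a median log2 fold change of -0.09 beside -0.01 over all tested genes of that level, and 0 passed.

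Genes around these steps were read from further lists chosen by function, and 0 of the 94 tested genes in them passed by edgeR in either direction, where 12 had an unadjusted p under 0.05. These 12 are 12.8% of the 94, beside 12.8% of all genes tested. DESeq2 called 0 of the 94 higher and 2 lower, where it called 0.957% of all genes with an adjusted p higher and 0.992% lower. Of 36 further HIF1 targets 33 were tested, 15 positive and 18 negative. Their median log2 fold change was -0.08 over the tested genes, as for the medians of the other lists that follow. At a mean of at least 1 FPKM, 10 of these further targets were positive and 17 negative, with a median of -0.10. The caveolin gene CAV1, a membrane scaffold, stood at 131.4 and 123.4 FPKM in TCN1_OE, against 170.8 and 162.8 FPKM in NC, at -0.39 ± 0.08 on the log2 scale (edgeR adjusted p = 0.0739). STC2, a secreted glycoprotein induced by stress, stood at 3.22 and 3.29 FPKM in TCN1_OE, against 4.59 and 6.25 FPKM in NC, at -0.73 ± 0.17 (edgeR adjusted p = 0.111).

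Of 13 HIF regulators 12 were tested, with a median of 0.03. The co-activator competitor CITED2 had 0.24 ± 0.13 and the elongin subunit gene ELOB 0.17 ± 0.10. Among 15 genes of pyruvate transport into mitochondria and its use there the median was 0.02, with the pyruvate dehydrogenase component PDHX at -0.27 ± 0.10 and the phosphatase PDP1 at 0.17 ± 0.08. The 7 genes of the pentose phosphate pathway, which draws glucose 6-phosphate off for NADPH and ribose, were all tested and had a median of -0.04, with PGLS at 0.18 ± 0.12 and RPE at -0.11 ± 0.11. The 8 genes of glycogen metabolism had a median of -0.01, with the phosphorylases PYGB and PYGL at -0.19 ± 0.10 and -0.05 ± 0.08. Of 22 other glycolysis and gluconeogenesis genes 11 were tested, with a median of -0.01, and G6PC3 and PFKFB2 stood at -0.28 ± 0.12 and -0.22 ± 0.10. Of 14 other hexose and lactate transport genes 8 were tested, with a median of 0.03, and SLC2A9 and SLC2A8 stood at 0.37 ± 0.23 and 0.20 ± 0.16.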

How the data were processed

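PolyA RNA of the 4 libraries was prepared with a kit that does not mark strand, per the labels' protocols. Per the submitters' processing notes the authors used HISAT2 (version not given) and HTSeq 0.13.5 on GRCh38. The authors deposited a raw count and an FPKM value per gene, per the file headers. The deposited FPKM is the count over gene length and library total: the implied length was a whole number in 100% of values above 0, within 1e-04 bp.

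The 39 genes and the 12 lists of other genes were chosen with earlier results of these data known. All 39 are named. Values per library are given for those past the threshold, those with an unadjusted p under 0.05 at a mean of at least 1 FPKM, and SLC2A1, HK2, PFKP, PKM, LDHA, HIF1A, VEGFA, PDK1 and CA9. Of each list, genes past the threshold or the 2 with the smallest p at that level are named.

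Counts were tested with edgeR 4.0.16 in R 4.3.3 (TMM factors, robust quasi-likelihood fit, group as the only term, filterByExpr with a minimum count of 10) and adjusted by Benjamini-Hochberg over all genes tested. The procedure was tested on simulated data. Alternatives were other scalings and filters, DESeq2 1.42.0, limma 3.58.1 on log2 FPKM with pseudocounts of 0.5, 0.1 and 1, each library left out, and the replicate number as a block. Gene positions and overlaps are from GENCODE 29 and promoter windows from RefSeq. At a length of 1500 bp, 3 counts equal 0.121 and 0.136 FPKM in TCN1_OE and 0.1 and 0.173 FPKM in NC, which covers counting error only.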

Additional observations from a re-analysis of the deposited data

How the results depend on the processing

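DDIT4 kept a positive log2 fold change, of 0.50 to 0.70, in all 13 alternatives. Among the alternatives that kept all libraries, it passed in each except limma at its 3 pseudocounts. Over all genes, 69 were called higher and 64 lower with library totals only, 200 and 275 without a filter, 111 and 115 by DESeq2, and 1 and 0 by limma at each pseudocount. With a filter at 1 FPKM 14 were called lower. Without each library in turn, 104 to 188 were called higher and 106 to 142 lower. Of the 39 genes, 3 were called higher without a filter (DDIT4, NDRG1 and ALDOC), 0 by limma at each pseudocount, and 1 to 2 without each library in turn. The cause was not tested.

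With the replicate number as a block, 1216 of the 15113 tested genes were called higher and 1655 lower. Of the 37 genes tested here, 7 were called higher: DDIT4, NDRG1, ALDOC, BNIP3L, HK1, P4HA2 and SLC2A1. In that fit 8 were called lower: ENO1, TPI1, GPI, HK2, PGAM1, PFKP, HIF1A and PKM. The labels give no shared origin to equal numbers, so the numbers are not taken to pair the libraries. The deviations of the replicate 1 libraries from their group means correlated at r = 0.15 across tested genes. With 2 libraries a group the deviations of replicate 2 mirror these, so both pairs give the same value. The gap from replicate 1 to replicate 2 had the same sign in both lines for 72.3% of the 11470 genes averaging at least 1 FPKM. Whether equally numbered libraries share a source was not tested.

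Without each library in turn, the median log2 fold change was -0.055 to 0.050 over the 32 genes and -0.161 to -0.024 over the glycolysis and transport genes. It was 0.123 to 0.190 over the genes grouped as secreted, intracellular or surface HIF1 targets. The sign of 13 genes turned in these fits, with no call: SLC16A3 lay between -0.35 and 0.12, PFKL between -0.18 and 0.20, ALDOA between -0.53 and 0.15, GAPDH between -0.06 and 0.01, ENO2 between -0.02 and 0.30, PKM between -0.13 and 0.01, PFKFB3 between -0.18 and 0.05, PFKFB4 between -0.11 and 0.27, PDK1 between -0.01 and 0.23, EGLN1 between -0.17 and 0.10, VEGFA between -0.19 and 0.00, BNIP3 between -0.14 and 0.28, and ANKRD37 between -0.48 and 1.24. With 2 libraries a group, small differences were not detectable in genes of few counts and could be missed in abundant ones. ENO1, at 290 and 318.3 FPKM in TCN1_OE and 360.4 and 379.5 FPKM in NC, did not pass at -0.29 ± 0.09.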

Other observations

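Replicate 2 was above replicate 1 in both TCN1_OE and NC for 16 of the 32 genes that averaged 1 FPKM or more and below it in both for 7. Over all 11470 genes of that level the lean was the other way, with 3774 above in both and 4522 below in both. The gap had the same sign in both lines for 71.9% of the 32 genes and for 72.3% of all 11470 genes of that level. Its median on the log2(FPKM + 0.5) scale was 0.11 in TCN1_OE and 0.01 in NC for the 32 genes, and -0.02 in TCN1_OE and -0.01 in NC for all genes.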
